A study of Mus musculus with 21 samples.

Results

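The 8 genes described here encode transcription factors that mark the passage from dividing cortical progenitor to neuron: the proneural factors Neurog1 and Neurog2, the intermediate progenitor factor Eomes (also called Tbr2), and the neuronal factors Neurod1, Neurod4, Neurod2, Neurod6 and Bhlhe22. They were chosen by gene symbol, and all 8 were found among the 40770 genes of the linc-Brn1b table and the 42760 genes of the Peril table. Of the 21 libraries and 10 groups of the series, 17 libraries in 8 groups came from brain or telencephalon.

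Telencephalon of E13.5 and of E15.5 embryos, and the whole brain of P7 pups, came from linc-Brn1b+/+ and linc-Brn1b-/- mice. Whole brain at E18.5 came from the Peril strain, whose genotypes the labels write as linc-Sox2+/+ and linc-Sox2-/-. Lung at E14.5, used only as a background level, came from wild-type and knockout embryos of the Fendrr strain, labelled lincFoxf1a. In each knockout the lincRNA gene was replaced in every cell by a lacZ reporter cassette, so a telencephalic value cannot be assigned to the cells that normally use the lincRNA. Each group had 2 libraries, except linc-Brn1b-/- at E15.5, for which the labels list 3. The deposited tables hold 1 FPKM value per group (fragments scaled to transcript length and library size). Every level below is therefore the authors' group value, with no spread between animals, no p-value, and an unknown number of reads behind it. FPKM values are scaled for transcript length, so levels of different genes within a table can be set side by side. The Peril table was normalized separately, and its values are given beside those of the linc-Brn1b table with no fold between them.

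Neurogenin proteins are basic helix-loop-helix (bHLH) factors that bind DNA as dimers with E proteins and turn on a neuronal programme in dorsal telencephalic progenitors. Eomes, a T-box factor, is switched on in the intermediate progenitors that leave the ventricular surface, and NeuroD factors and Bhlhe22 follow in differentiating glutamatergic neurons. Hes1 and Hes5 repress proneural genes, Hes6 is known to oppose Hes1 and favour neurogenesis, and Id proteins hold E proteins in inactive dimers. Neurod1 is also a gene of cerebellar granule neurons and their precursors.

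Positions below are those of GENCODE for mm9 (NCBIM37). Neurog1 lies on the minus strand of chromosome 13 from 56351866 to 56353524 and is annotated with 1 exon. Neurog2 lies on the plus strand of chromosome 3 from 127336054 to 127338549, with 2 exons. Eomes has 6 exons on the plus strand of chromosome 9 from 118387330 to 118395250. Neurod1, with 2 exons, lies on the minus strand of chromosome 2 from 79292678 to 79296908. Neurod4 lies on the minus strand of chromosome 10 from 129705209 to 129717296, and Neurod2 on the minus strand of chromosome 11 from 98186729 to 98190962, each with 2 exons. Neurod6, on the minus strand of chromosome 6 from 55627812 to 55631257, has 2 exons. Bhlhe22 has 1 exon on the plus strand of chromosome 3 from 17954325 to 17957509.

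RefSeq promoter windows, from 250 bases before to 50 bases after the start site in the GRCm38.p6 build, were found for 7 of the 8 genes, with a second window for Neurod4. Bhlhe22 had no entry. Each of the 8 windows matched the mm9 sequence exactly once, and the mm9 positions are given. The only motif searched was the E-box CANNTG, the 6-base site that bHLH dimers bind, which reads the same on both strands. The promoters of Neurog2 and Eomes are shown as the most abundant factors of the progenitor steps, and those of Neurod2 and Neurod6 because their levels ran most nearly together. Capitals mark E-boxes, and every sequence is given from 5′ to 3′ on the strand of its gene.
Neurog2, chr3:127335804-127336103, plus strand: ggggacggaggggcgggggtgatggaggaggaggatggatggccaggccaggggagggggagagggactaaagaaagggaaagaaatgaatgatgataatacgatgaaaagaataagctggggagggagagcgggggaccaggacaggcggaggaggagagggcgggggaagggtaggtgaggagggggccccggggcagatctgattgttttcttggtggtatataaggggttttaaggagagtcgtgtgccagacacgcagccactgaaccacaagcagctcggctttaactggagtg
Eomes, chr9:118387057-118387356, plus strand: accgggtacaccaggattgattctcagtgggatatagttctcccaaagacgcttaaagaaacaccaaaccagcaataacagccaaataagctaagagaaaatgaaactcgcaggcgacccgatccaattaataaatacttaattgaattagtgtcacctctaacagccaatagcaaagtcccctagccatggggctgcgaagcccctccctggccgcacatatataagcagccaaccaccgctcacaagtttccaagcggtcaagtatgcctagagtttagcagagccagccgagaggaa
Neurod2, chr11:98190910-98191209, minus strand: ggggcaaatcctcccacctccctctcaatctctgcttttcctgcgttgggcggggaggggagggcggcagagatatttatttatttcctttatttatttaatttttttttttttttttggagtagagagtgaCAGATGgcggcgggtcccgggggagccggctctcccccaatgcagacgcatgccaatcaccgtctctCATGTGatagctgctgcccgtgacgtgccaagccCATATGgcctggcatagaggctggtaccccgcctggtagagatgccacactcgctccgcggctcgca
Neurod6, chr6:55631208-55631507, minus strand: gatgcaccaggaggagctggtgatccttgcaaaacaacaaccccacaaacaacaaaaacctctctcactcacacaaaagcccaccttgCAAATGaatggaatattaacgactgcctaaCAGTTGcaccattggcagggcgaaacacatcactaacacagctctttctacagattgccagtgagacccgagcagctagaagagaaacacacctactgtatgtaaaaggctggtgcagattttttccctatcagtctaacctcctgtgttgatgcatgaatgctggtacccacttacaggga

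No E-box letters were found in the Neurog2 or Eomes window. The Neurod2 window held 3, with first bases at -118, -51 and -17 from the start site, the one nearest the start being CATATG. The Neurod6 window held 2, at -162 and -132. Neurod1 held 1 at -242, also with the letters CATATG. Neurog1 held 1 at 5, just inside the transcript, as did 1 of the 2 Neurod4 windows. E-boxes are common: 72.3% of all 32851 windows held at least 1 and 17.6% held at least 3. These matches describe the letters of the windows and are not evidence of binding.

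The groups were first checked against their labels. The lincRNA linc-Brn1b was listed at 1.60 FPKM in wild-type telencephalon at E13.5, 2.50 at E15.5 and 0.799 in P7 brain, and at 0 in the knockout at all 3 ages. In the Peril table, the transcript linc-Atp11b-4 overlaps the deleted locus only in part and was listed at 0.0109 FPKM in wild type and 4.65 in the group labelled knockout. It does not check the labels, and directions for this strain rest on them as deposited. Of the Y-linked genes, Eif2s3y, Ddx3y, Uty and Kdm5d summed to 49.2 FPKM in wild type and 0.0133 in the knockout at E13.5, and were at most 0.0357 FPKM in sum in the wild-type groups and at least 21.0 FPKM in the knockouts at E15.5, P7 and E18.5. Sex and genotype therefore cannot be told apart in any of the 4 comparisons. The telencephalic labels fitted their markers: Tbr1, a gene of cortical neurons, was at 66.4 FPKM and Dlx1, of the ventral telencephalon, at 135 FPKM in wild type at E13.5, while 8 hindbrain and spinal cord genes summed to at most 0.0172 FPKM in the telencephalic groups.

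The proneural genes were highest at the earliest age. Neurog2 was at 64.8 FPKM in wild-type and 63.5 FPKM in linc-Brn1b-/- telencephalon at E13.5. At E15.5 the values were 40.6 and 45.6 FPKM, and in P7 brain 0.390 and 0.182 FPKM. At E18.5 Neurog2 was at 4.22 FPKM in wild type and 2.95 in the group labelled Peril knockout. Neurog1, its close relative, was much lower, at 6.47 and 6.07 FPKM at E13.5 and 1.63 and 1.44 FPKM at E15.5. It was at 0.0807 FPKM in wild-type and 0.0191 FPKM in linc-Brn1b-/- P7 brain, and at 0.117 and 0.0538 FPKM at E18.5. Within the linc-Brn1b table both neurogenins stood highest at E13.5 in either genotype, and Neurog1 was below 1 FPKM in every brain group.

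Eomes was at 57.2 FPKM in wild-type and 78.7 FPKM in linc-Brn1b-/- telencephalon at E13.5. The genotypes were at 49.5 and 50.9 FPKM at E15.5 and at 3.74 and 3.24 FPKM at P7. In E18.5 brain it was at 9.12 FPKM in wild type and 7.86 in the group labelled knockout. Among the 6 linc-Brn1b groups, the E13.5 knockout was the highest. The ratio of Eomes to Neurog2 was 0.883 in wild type and 1.24 in the knockout at E13.5, and 1.22 and 1.12 at E15.5. In P7 brain it was 9.57 and 17.8, where Neurog2 was under 1 FPKM.

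Neurod1, a bHLH factor of cells on the way to becoming neurons, was at 24.9 FPKM in wild-type and 32.2 FPKM in linc-Brn1b-/- telencephalon at E13.5. Its E15.5 values were 32.4 and 30.2 FPKM. In P7 brain it was at 25.0 FPKM in wild type and 8.37 in the knockout, and in E18.5 brain at 16.1 and 16.5 FPKM. The P7 knockout was the lowest of the 6 linc-Brn1b groups. Neurod4, a bHLH factor of early neurons in the embryo, was low throughout, at 2.21 and 3.66 FPKM at E13.5, 2.54 and 2.88 FPKM at E15.5, 0.472 and 0.133 FPKM at P7, and 0.508 and 0.665 FPKM at E18.5.

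Neurod6 (also called NEX), a factor of postmitotic glutamatergic neurons, had the highest level of the 8 genes in each of the 8 groups. It was at 153 FPKM in wild type and 219 FPKM in linc-Brn1b-/- at E13.5, at 334 and 344 FPKM at E15.5, and at 68.0 and 64.8 FPKM at P7. The E18.5 brains were at 122 FPKM in wild type and 143 in the group labelled knockout. Neurod2, which acts in the same neurons, was at 53.2 and 69.3 FPKM at E13.5, 103 and 96.0 FPKM at E15.5, and 17.8 FPKM in both genotypes at P7. At E18.5 it was at 38.5 and 43.2 FPKM. The ratio of Neurod6 to Neurod2 stayed between 2.88 and 3.81 over all 8 groups. Bhlhe22, a bHLH repressor of postmitotic neurons, was at 18.8 and 26.0 FPKM at E13.5 and 44.9 and 40.7 FPKM at E15.5. It kept 26.9 and 23.0 FPKM at P7, and was at 37.2 and 36.9 FPKM at E18.5.

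The order of the 8 levels shifted with age. In wild type at E13.5 it ran Neurod6, Neurog2, Eomes, Neurod2, Neurod1, Bhlhe22, Neurog1 and Neurod4, and in the knockout Eomes and Neurod2 stood above Neurog2. At E15.5 Neurod2 was second in both genotypes, followed by Eomes, and Bhlhe22 and Neurog2 were next, in opposite order in the genotypes and at 40.6 to 45.6 FPKM. At P7 Bhlhe22 was second in both, and Neurod1 stood above Neurod2 in wild type and below it in the knockout. With 1 value per group, whether neighbours in these orders differ beyond the spread between animals cannot be given.

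E14.5 lung of the Fendrr strain served as a tissue outside the nervous system. All 8 genes were at or below 0.153 FPKM there in both genotypes, the highest being Bhlhe22 in wild type, and Neurog1 was listed at 0 in both. The telencephalic and brain values of Neurod2, Neurod6, Bhlhe22, Eomes and Neurod1 were all above 3 FPKM. Values under 1 FPKM, such as those of Neurog1 and Neurog2 at P7, were closer to the lung values, with Neurog2 at 0.0607 FPKM in wild-type lung.

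Several values may hold reads of neighbouring transcripts. In the linc-Brn1b table, 6 of the 8 genes share their listed locus with an antisense lincRNA (Neurod4 and Neurod2 do not), and whether the counting used the strand is not given in the sources used here. These antisense entries were at most 1.78 FPKM. linc-Eomes-AS was at 0.888 FPKM in wild type and 1.78 in the knockout at E13.5, and linc-Neurod6-AS at 0.799 and 1.67 FPKM, in both cases higher in the same group as the gene. Neurog2 shares a locus of 82647 bp with 4930422G04Rik, which was at 4.8 FPKM in wild type and 8.87 in the knockout at E13.5. The part of these entries in the levels was not tested.

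The first comparison asked how the factors differed between linc-Brn1b-/- and wild-type telencephalon at E13.5. On the scale of log2(FPKM + 1), 6 of the 8 genes were higher in the knockout by 0.36 to 0.54, while the proneural genes Neurog1 and Neurog2 lay slightly below 0. None of the 8 was past 1.5-fold on this scale. Among the 13822 genes with at least 1 FPKM in either group, 1.64% were at least 1.5-fold higher and 5.59% at least 1.5-fold lower in the knockout. The median difference was 0.41 for the 8 genes and 0.06 for all genes compared. In a bulk sample, a difference in the number of cells of a type and a difference in RNA per cell cannot be told apart.

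In ratios of FPKM, Eomes was 1.38-fold and Bhlhe22 1.39-fold the wild-type level at E13.5. Neurod6 was 1.43-fold, Neurod2 1.30-fold and Neurod1 1.29-fold. Neurod4 was 1.66-fold, a ratio that the added 1 FPKM shrinks to a log2 difference of 0.54 because the gene is low. Neurog1 was at 0.938 and Neurog2 at 0.979 of wild type, differences of -0.08 and -0.03. Of all genes compared, 2.16% had a larger difference than Neurod4, 2.61% than Neurod6, 3.89% than Eomes and 3.99% than Bhlhe22. For Neurod2 and Neurod1 the shares were 6.90% and 7.91%.

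The E13.5 groups also differed in their FPKM sums and with transcript length. The summed FPKM of the knockout was 0.879 of the wild-type sum. When each group's values were taken as shares of their sum, Eomes, Neurod4, Neurod6 and Bhlhe22 were past 1.5-fold higher, and Neurog1 and Neurog2 turned to 0.09 and 0.16 above wild type. On this scale the split of all genes past 1.5-fold changed from 227 higher and 773 lower to 1014 higher and 529 lower.

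Genes with short transcripts tended to be lower in the E13.5 knockout. The median difference was -0.64 for 616 genes whose longest coding transcript had up to 1000 bp, -0.17 for 2317 genes of over 1000 and up to 2000 bp, 0.04 for 4982 genes up to 4000 bp, and 0.14 for 4072 longer genes (86.7% of the genes compared had a length). At E15.5 the same classes spanned only 0.05 to -0.01. Neurog1, at 1659 bp, is the shortest of the 8 and lay 0.09 above the median of its class. The other 7 genes, at 2154 to 3560 bp, share the class of over 2000 and up to 4000 bp. In that class Neurod4 lay 0.50, Neurod6 0.47, Eomes 0.41, Bhlhe22 0.41, Neurod2 0.34 and Neurod1 0.32 above the median, and Neurog2 0.07 below it. The part of transcript length in the differences was not tested further.

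**Figure D1:**
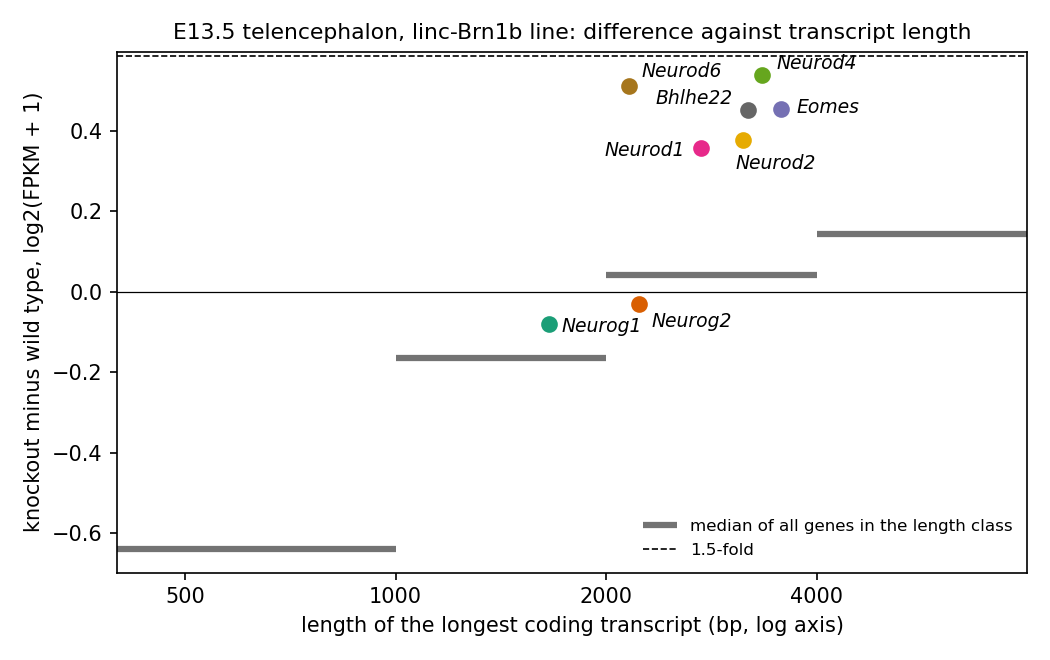
Knockout minus wild-type difference of log2(FPKM + 1) at E13.5 against the length of the longest coding transcript (bp, log axis); points are the 8 genes, grey bars the median of all genes in 4 length classes, and the dashed line 1.5-fold. The class medians run from -0.64 to 0.14, and Eomes, Bhlhe22 and the 4 NeuroD genes lie 0.32 or more above the median of their class, whereas Neurog1 and Neurog2 lie within 0.09 of theirs.

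Genes of the same pathway at E13.5 were described by lists. Of 12 genes of the cortical sequence around Eomes, 9 were above 0, none was past 1.5-fold, and the median was 0.24. Within that list Fezf2, a gene of cortical projection neurons, was 0.53 higher, and Tbr1, which follows Eomes in the sequence, 0.26 higher, while the neuronal tubulin Tubb3 was at 869 and 678 FPKM, a difference of -0.36. Of 16 proneural targets and intermediate progenitor genes, 11 were above 0 and 1, Rnd2, was past 1.5-fold lower, at 179 FPKM in wild type and 118 in the knockout. The list's highest was Unc5d, a netrin receptor gene of intermediate progenitors and upper-layer cells, at 4.41 and 7.0 FPKM (0.56). The Notch ligand gene Dll1 was at 28.8 and 29.8 FPKM and the zinc-finger factor Insm1 at 25.2 and 25.5 FPKM.

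Of 7 Id and Hes genes at E13.5, 6 were below 0, with a median of -0.23. One of the 6 was Hes6, at 70.9 and 65.7 FPKM (-0.11), the member known to favour neurogenesis. Id1 was at 12.5 FPKM in wild type and 6.16 in the knockout and Id3 at 21.2 and 11.9 FPKM, both past 1.5-fold lower. Hes5, a Notch effector, was at 46.9 and 34.1 FPKM. The longest coding transcripts of these 7 genes, and those of Rnd2 and Tubb3, are of 1160 to 1868 bp and so in the class of over 1000 and up to 2000 bp, whose median was -0.17. Unc5d (8835 bp) is in the longest class, whose median was 0.14. The 3 E-protein genes were all within 1.5-fold, with Tcf4, of 7402 bp, at 112 and 147 FPKM (0.39). Radial glia genes were below 0 in 7 of 9 cases, with none past 1.5-fold and a median of -0.10. Of 6 other neural bHLH activators compared, none was past 1.5-fold.

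At E15.5 the genotypes were closer. Of the 8 genes, 4 were above and 4 below 0, none was past 1.5-fold, and the median was -0.03. Of 13657 genes compared, 0.242% were at least 1.5-fold higher and 0.322% lower. Neurog2 was the furthest above, at 0.16, with 2.23% of genes in its length class higher. Bhlhe22 was the furthest below, at -0.14. Both lay just outside the range of 5th to 95th percentile of all genes, from -0.13 to 0.13. Eomes differed by 0.04 and Neurod6 by 0.04. None of the 16 proneural targets, the 12 genes of the cortical sequence, the 7 Id and Hes genes or the 3 E-protein genes was past 1.5-fold either. Ttr, a choroid plexus gene, was at 231 FPKM in wild type and 1.39 in the knockout at this age, and its part in the differences was not tested.

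**Figure D2:**
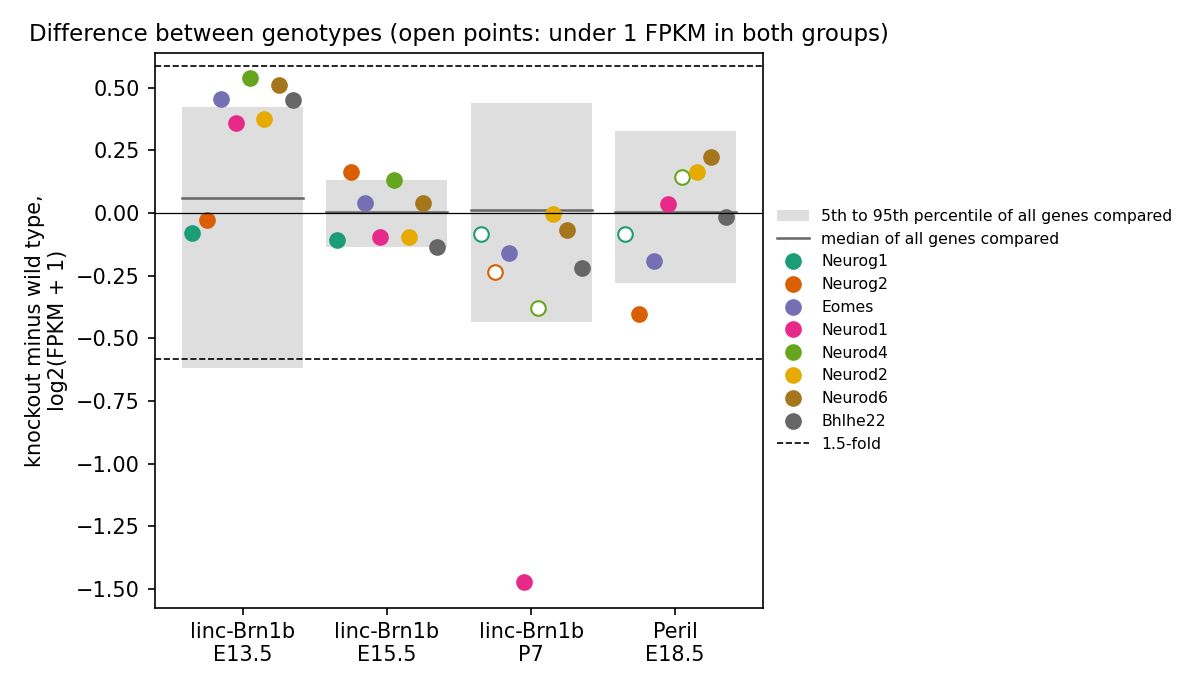
Knockout minus wild-type difference of log2(FPKM + 1) for the 8 genes (coloured points) in 4 comparisons, with the 5th to 95th percentile range (grey box) and median (grey line) of all genes compared and 1.5-fold (dashed); open points are genes under 1 FPKM in both groups, and the Peril knockout is so labelled. At E13.5, 6 genes lie between 0.36 and 0.54, at E15.5 all 8 lie within 0.16 of 0, and at P7 Neurod1 lies at -1.47.

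From E13.5 to E15.5 in wild-type telencephalon, the proneural genes were lower and the neuronal factors higher. The 4 Y-linked genes summed to 49.2 FPKM at E13.5 and 0.00662 FPKM at E15.5 in wild type, so age and sex cannot be told apart in this step. Neurog1 was at 25.2% of its E13.5 level and Neurog2 at 62.7%, both past 1.5-fold lower. Neurod2 was 1.93-fold, Neurod6 2.18-fold and Bhlhe22 2.39-fold its E13.5 level, all past 1.5-fold higher. Eomes, Neurod1 and Neurod4 stayed within 1.5-fold, with log2 differences of -0.21, 0.37 and 0.14. That made 3 of the 8 higher and 2 lower, against 8.72% of 13973 genes compared higher and 8.27% lower. The summed level of Neurod2, Neurod6 and Bhlhe22 over that of Neurog1 and Neurog2 went from 3.16 to 11.4.

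In linc-Brn1b-/- telencephalon the same step was 2 of 8 higher and 2 lower, against 10.4% of 13977 genes higher and 7.84% lower. Here the Y-linked sum went the other way, from 0.0133 to 21.0 FPKM, so sex is joined to age in opposite ways in the 2 genotypes. Neurod6 and Bhlhe22 were each 1.57-fold their E13.5 level and Neurod2 1.38-fold. Neurog1 was at 23.7% and Eomes at 64.7% of the E13.5 level, both past 1.5-fold lower, and Neurog2 was at 71.8%. The late-to-early ratio of the sums went from 4.52 to 10.2. No value per library allows a test of whether the step differed between genotypes. On shares of the FPKM sum, neither Neurod6 nor Bhlhe22 was past 1.5-fold in this step (0.47 and 0.46), Neurog2 was (-0.65), and the split of all genes past it went from 1457 higher and 1096 lower to 1117 higher and 2425 lower.

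The surrounding lists showed the same ages from the other side. In wild type, 6 of 9 radial glia genes were past 1.5-fold lower at E15.5, with Nes from 132 to 55.2 FPKM and Sox2 from 100 to 50.8 FPKM. Of 16 proneural targets, 5 were past 1.5-fold lower and 1 higher, the ligand gene Dll1 going from 28.8 to 13.7 FPKM and Unc5d from 4.41 to 9.80 FPKM. Of the 7 Id and Hes genes, 3 were lower, among them Hes5 from 46.9 to 18.3 FPKM, and Id2, also a gene of upper-layer neurons, was higher, from 55.9 to 153 FPKM. In the knockout, 7 radial glia genes were past 1.5-fold lower and 1, Fabp7, higher. Fabp7 went from 348 to 759 FPKM in the knockout and from 516 to 674 FPKM in wild type. At 880 bp it is in the shortest length class, whose median difference between genotypes at E13.5 was -0.64.

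**Figure D3:**
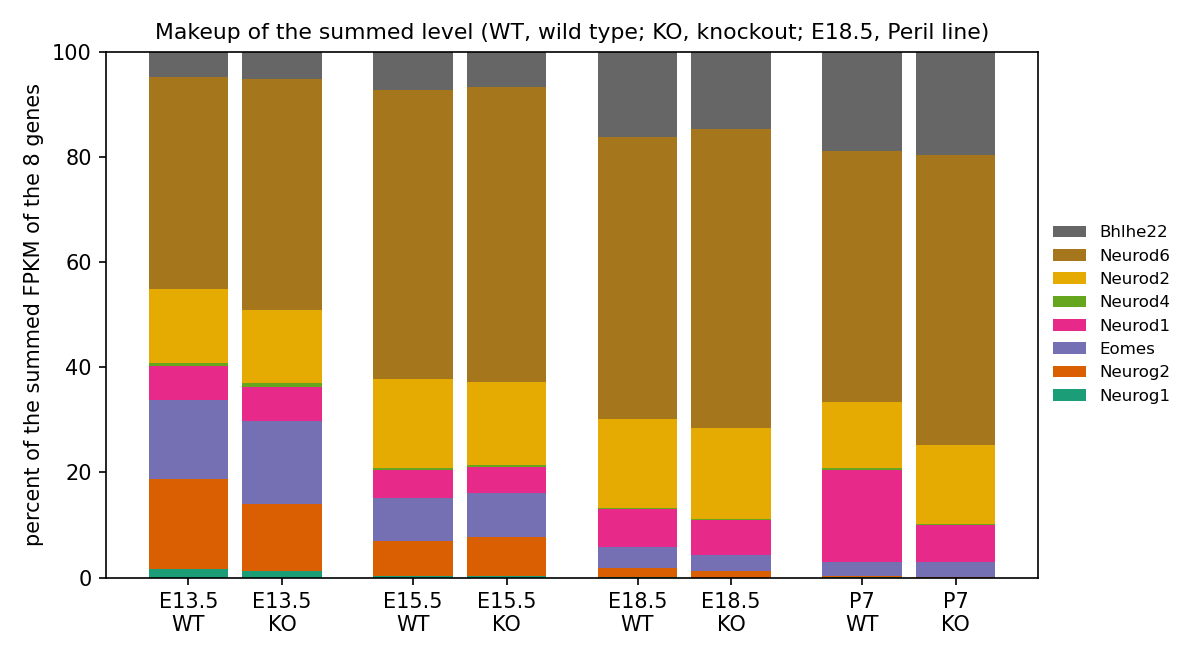
Percent of the summed FPKM of the 8 genes taken by each gene in 8 groups, 1 authors' group value per gene (WT, wild type; KO, knockout; E18.5 bars are the Peril strain). Neurog2 takes 17.0% of the sum in wild type and 12.7% in the knockout at E13.5 and under 0.3% at P7, while Neurod6 takes 40.2% to 56.9% in every group.

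The P7 samples were whole brain rather than telencephalon, so age and dissection cannot be told apart between E15.5 and P7. In wild type, 7 of 8 genes were past 1.5-fold lower at P7, against 24.7% of 14909 genes higher and 26.8% lower (3676 and 3999 genes, or 4350 and 3154 when centred on the median difference). Neurog2 was lower by the widest margin, at 0.960% of its E15.5 level, followed by Neurog1 at 4.95% and Eomes at 7.54%. Neurod2 was at 17.4%, Neurod6 at 20.3% and Bhlhe22 at 60.0%. Neurod1 alone of the 8 was not past 1.5-fold, at 77.2%. In linc-Brn1b-/- brain all 8 were past 1.5-fold lower, against 25.6% of 14853 genes higher and 26.9% lower, and Neurod1 was at 27.7% of its E15.5 level.

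Between genotypes at P7, 5 of the 8 genes reached 1 FPKM in either group, and 1 of the 5, Neurod1, was past 1.5-fold lower in the knockout. Of 14521 genes compared, 2.16% were at least 1.5-fold higher and 2.42% lower. Neurod1 was at 33.4% of the wild-type level, a log2 difference of -1.47, and 0.165% of genes lay lower. Neurod2 differed by -0.01, Neurod6 by -0.07, Eomes by -0.16 and Bhlhe22 by -0.22. Neurog1, Neurog2 and Neurod4 were under 1 FPKM in both genotypes, each lower in the knockout. The ratio of Neurod1 to Neurod2 was 1.40 in wild-type P7 brain, and between 0.315 and 0.471 in the other 7 groups, the P7 knockout included.

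Cerebellar and hindbrain genes moved with Neurod1 at P7. All 5 cerebellar granule cell genes compared, of 8 listed, were past 1.5-fold lower in the knockout, and the list's sum was 102 FPKM in wild type and 50.4 in the knockout. Zic1 was at 38.8 and 16.0 FPKM, Barhl1 at 4.25 and 0.939 FPKM, Zic2 at 16.9 and 7.61 FPKM, and Cbln1 at 38.0 and 24.9 FPKM. Atoh1, the proneural gene of granule cell precursors, was at 0.507 and 0.0148 FPKM, and Gabra6, of mature granule cells, at 0.519 and 0.0324 FPKM. The 8 hindbrain and spinal cord genes summed to 9.47 FPKM in wild type and 0.159 in the knockout, with Hoxb5 at 3.61 and 0.0165 FPKM and Hoxc4, Hoxb2 and Hoxa3 listed at 0 in the knockout. Pax6, a progenitor gene that cerebellar granule cells also use, was at 15.3 and 5.43 FPKM and Insm1 at 5.45 and 1.38 FPKM, both past 1.5-fold lower. The bHLH genes Nhlh1, at 1.77 and 0.125 FPKM, and Nhlh2, at 5.14 and 1.44 FPKM, were so too. The granule cell list is not confined to the cerebellum, as it summed to 82.3 FPKM in wild-type telencephalon at E13.5 and 60.0 at E15.5. In those 2 groups Zic1 was at 53.0 and 38.1 FPKM, Zic2 at 21.0 and 12.0 FPKM and Cbln1 at 8.08 and 9.77 FPKM. Barhl1 was at 0.0182 and 0.0167 FPKM in them. At P7, genotype and the amount of cerebellar and hindbrain tissue in the samples cannot be told apart, for Neurod1 or any other gene. The part of this tissue in the P7 differences, that of Neurod1 included, was not tested.

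**Figure D4:**
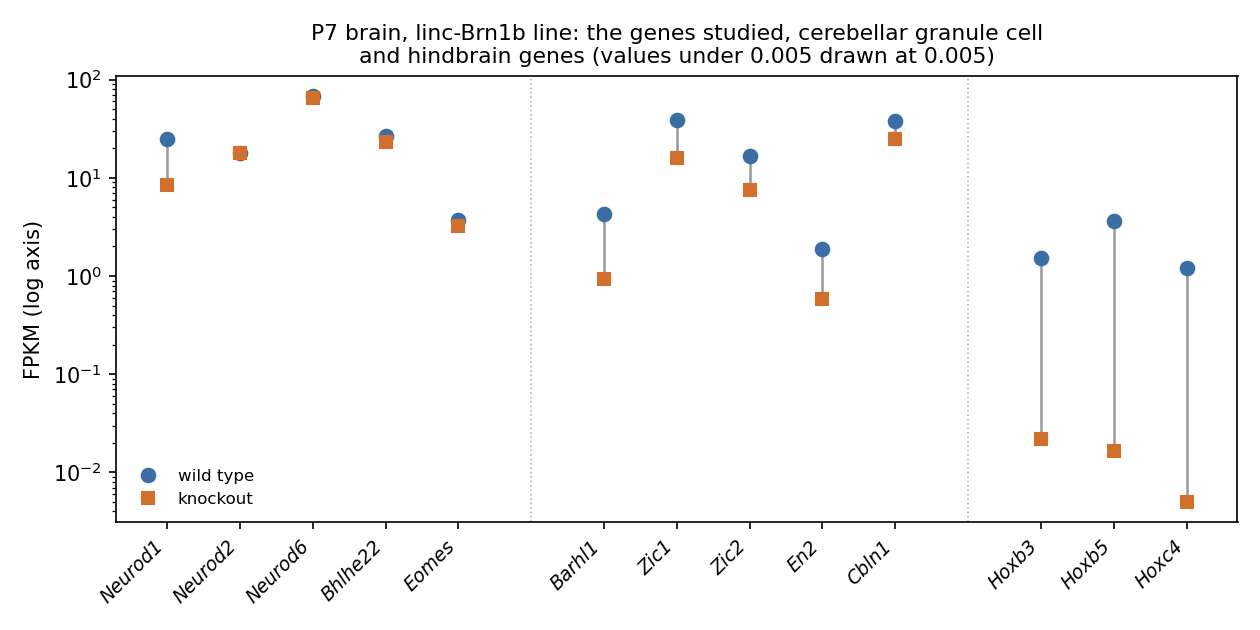
FPKM (log axis) in P7 brain of the linc-Brn1b strain, wild type (blue circles) and knockout (orange squares), 1 authors' group value per point, for 5 of the 8 genes, for the 5 cerebellar granule cell genes compared and for the 3 hindbrain and spinal cord genes compared; Hoxc4 is listed at 0 in the knockout and drawn at the lower limit. Neurod1, at 25.0 and 8.37 FPKM, is separated as the cerebellar genes are, while the points of Neurod2 and Neurod6 nearly coincide.

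The cortical neuron genes Tbr1 and Bcl11b were not lower in the knockout at P7. Tbr1 was at 13.8 FPKM in wild type and 18.2 in the knockout, and Bcl11b at 12.9 and 14.8 FPKM. Of 12 genes of the cortical sequence, 6 were above and 6 below 0, and only Pax6 was past 1.5-fold. Of 9 radial glia genes, 7 were below 0 and 3 past 1.5-fold lower, among them Fabp7 at 919 and 508 FPKM.

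In E18.5 brain of the Peril strain, none of the 6 genes with at least 1 FPKM was past 1.5-fold, and 3 were above and 3 below 0. Of 14729 genes compared, 1.12% were at least 1.5-fold higher and 0.855% lower in the group labelled knockout. Neurog2 was the furthest from 0, at 69.9% of wild type (-0.40), followed by Neurod6 at 1.18-fold (0.22), Eomes at 86.2% (-0.19) and Neurod2 at 1.12-fold (0.16). Neurod1 and Bhlhe22 differed by 0.03 and -0.01. Only 1.58% of genes in the length class of Neurog2 lay lower. The late-to-early ratio of the sums was 45.6 in wild type and 74.1 in the group labelled knockout. All 16 proneural targets were within 1.5-fold, 10 of them below 0. All 7 hindbrain and spinal cord genes compared were higher in the group labelled knockout, 2 past 1.5-fold, and the list of 8 summed to 5.92 and 16.5 FPKM. The 5 cerebellar granule cell genes compared were instead all lower, none past 1.5-fold, with a median of -0.23. The part of these differences in the Neurog2 value was not tested.

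The genes most like each factor were searched over the 6 linc-Brn1b groups among 10595 genes, as the smallest root mean square difference of log2(FPKM + 1) after centring each gene on its own mean. This distance was not scaled to a gene's range, and the added 1 FPKM narrows the range of low genes. Distances found for different factors are therefore not directly comparable. Neurod2 and Neurod6 were the closest pair among the members, at 0.126, and shared Sox5 and Cntn2 as neighbours. Sox5 was nearest to Neurod2 at 0.106, with 29.5 FPKM in wild type and 42.5 in the knockout at E13.5. For Neurog1 the nearest gene was Wnt8b, a Wnt ligand gene, at 0.0286. Wnt8b was at 6.5 and 5.91 FPKM at E13.5, 1.57 and 1.43 FPKM at E15.5, and 0.0274 and 0.0257 FPKM at P7. Grb10 and Exo1 followed, at 0.115 and 0.166.

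Eomes was nearest to Sox11, at 0.150, a gene of new neurons that was at 196 FPKM in wild type and 245 in the knockout at E13.5. Celsr1 and Ezh2 followed at 0.158 and 0.163. Bhlhe22 was nearest to Tshz3 at 0.0904, then Tcfap2d and Gpr21. For Neurog2, whose level had a wide range, the nearest gene was Ezh2 at 0.686, followed by Fam60a and Sox11. Neurod1 was nearest to Arrdc3 at 0.236, with 20.5 FPKM in wild type and 7.70 in the knockout at P7, then mDEAH9 and Fgfbp3. Neurod4 stayed under the 5 FPKM that the search required.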

How the data were processed

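RNA of mouse telencephalon, brain and lung was made into libraries with a TruSeq kit and sequenced from both ends (101 bp). Per the labels and methods, the authors used TopHat2 for alignment to mm9, Cufflinks 2.0.2 for assembly and Cuffdiff2 at default settings for expression. The values the authors deposited are FPKM, 1 per group and table, with 0 columns of values per sample. Other columns hold the authors' own fold changes, test statistics, p-values, q-values and calls, and were not used. Each group's FPKM was read from its genotype comparison. The tables were normalized separately, so folds were taken only within a table. Library depth is not given in the sources used here.

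Differences are of log2(FPKM + 1), second group minus first, which understates the fold of low genes. Genes with at least 1 FPKM in either group were compared, and a gene counted as past the fold at 1.5-fold or more on this scale. No p-value was computed, since 1 value per group leaves no replicate error. The 8 genes and the other lists (14 in all) were written by hand and chosen with earlier results of these data known. Text names the 8 genes, list genes past the fold or with a stated role, and the 3 genes nearest to each of the 8 in profile, and some list genes are not reported here. The comparison with transcript length (longest GENCODE coding transcript), the transcripts sharing a locus and the promoters were added after the data were seen. Alternatives were pseudocounts of 0.1 and none, other filters, 2-fold, centring on the median and shares of the FPKM sum. The counting of calls was tested on simulated data. Analyses used Python 3.11.15, pandas 2.3.3 and numpy 2.4.6.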

Additional observations from a re-analysis of the deposited data

How the results depend on the processing

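No paired analysis was possible because the tables hold 1 value per group. Leaving out each replicate and the replicate block were not run for the same reason. No difference of the 8 genes that was past 1.5-fold changed sign under any alternative. At E13.5, between genotypes, the count of the 8 genes past 1.5-fold was 0, and was 1 with a pseudocount of 0.1 and 1 without a pseudocount (Neurod4 in both), and 4 on shares of the FPKM sum. From E13.5 to E15.5, 2-fold in place of 1.5-fold gave 3 genes in wild type and 1 in the knockout. From E15.5 to P7, requiring at least 1 FPKM in both groups gave 4 genes in wild type and 5 in the knockout, since it leaves 5 genes to compare. Centred on the median difference, Bhlhe22 at P7 against E15.5 in wild type was at -0.58 and no longer past 1.5-fold, and all genes split into 4350 higher and 3154 lower in place of 3676 and 3999. In the knockout the 3799 higher and 3994 lower of this step became 4389 and 3248 when centred, and 4613 and 3613 on shares, and in wild type the shares gave 4383 and 3759. On shares of the FPKM sum, Neurod2 at P7 between genotypes went from -0.01 to 0.04. The other counts over the 8 genes stayed within 1.5 times.

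Counts over all genes moved more, given here as higher and lower. At E13.5 between genotypes they were 227 and 773, and became 512 and 982 with a pseudocount of 0.1, 567 and 994 without one, and 67 and 230 at 2-fold. At E15.5 they were 33 and 44, and became 52 and 79, 46 and 78, and, with 1 FPKM in both groups, 10 and 18. At P7 they were 314 and 351, and became 549 and 665, 604 and 711, 71 and 84 at 2-fold, and 543 and 448 on shares, where more genes were higher than lower. In the Peril strain they were 165 and 126, and became 363 and 269, 399 and 286, 90 and 64 with 1 FPKM in both groups, 62 and 52 at 2-fold, and 278 and 196 on shares. Between ages, 2-fold left 297 and 288 of 1219 and 1155 in wild type and 448 and 221 of 1457 and 1096 in the knockout (E15.5 against E13.5), and 2134 and 1829 and 2329 and 1933 (P7 against E15.5). Without a pseudocount the wild-type counts of E15.5 against E13.5 were 1829 and 1587. The cause of these shifts was not tested. Precision is limited by the single value per group.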

Other observations

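Other gene groups around the 8 factors were compared between genotypes in the same way. Of 10 interneuron and ventral telencephalon genes, none was past 1.5-fold at E13.5 or E15.5, with medians of 0.02 and 0.04, and at P7 8 of the 9 compared were above 0 while 1, Ebf1, was past 1.5-fold lower at 6.35 FPKM in wild type and 2.04 in the knockout. Of 5 Cajal-Retzius cell genes, none was past 1.5-fold at E13.5 or E15.5. At P7, Reln was at 37.2 and 24.0 FPKM and Lhx1 at 2.85 and 1.02 FPKM, both past 1.5-fold lower. Of the dentate granule cell genes, Dsp was past 1.5-fold higher at E13.5, at 0.429 and 1.18 FPKM, and Prox1 was at 7.58 and 7.21 FPKM. Among 10 glial and other non-neuronal genes, the endothelial gene Cldn5 was past 1.5-fold lower at E13.5, at 16.5 and 8.19 FPKM. By transcript length, Cldn5 (1414 bp) is in the class whose median difference at E13.5 was -0.17. Dsp (9538 bp) is in the class whose median was 0.14. At P7 the myelin gene Mbp was past 1.5-fold lower, at 292 and 161 FPKM. The amount of cerebellar and hindbrain tissue cannot be told apart from genotype in these P7 differences either. In the Peril strain none of these lists held a gene past 1.5-fold.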
